A study of Homo sapiens with 4 samples.

Results

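Cancer-testis antigens are proteins made in germ cells of the testis, kept silent in most adult tissues and made again in a share of tumours. The genes taken here are those whose symbols begin with MAGE, PAGE, GAGE, XAGE, CTAG, SPANX, BAGE or CT45, or with SSX and a number. Each gene was read from its brightest probe set, by the mean of the 4 arrays, among those that carry a single gene symbol. Of 48 symbols found this way, 5 were left out: BAGE2, CTAGE3P, SSX6P and SSX8P are pseudogenes in the gene table, and SSX2IP (higher by 1.04 in the knockdown arrays) names a protein that binds SSX2. The remaining 43 genes, of 18132 measured, comprise 24 MAGE, 6 SPANX, 4 PAGE, 3 XAGE, 3 SSX, 2 CTAG and 1 GAGE genes. No protein-coding BAGE or CT45 gene had a probe set of its own. The RefSeq gene table lists 95 protein-coding genes with such names, and many of them are near-identical copies that share probe sets; 36 probe sets annotated to several gene entries of a single family are described separately, without assigning their signal to any of those genes.

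The arrays hold RNA of Hs578T, a human breast cancer line with mesenchymal features. Per the labels, 2 arrays (ELK3 knockdown, numbered 1 and 5) hold cells stably transduced with lentiviral shRNA against ELK3, and 2 arrays (ELK3 sh control, numbered 1 and 2) hold control cells. All were grown in the same medium with serum and insulin, and the labels do not give the sequences of the shRNAs. ELK3 encodes an ETS transcription factor, and the series' title links it to the chemokine CXCL16 and to killing by natural killer cells. The labels do not say whether the numbers stand for constructs, clones or cultures, so the p-values measure the spread between these arrays, which may be technical. In RNA of a whole culture, fewer cells that express a gene and less of its RNA per cell cannot be told apart.

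Most of these genes lie in clusters on the X chromosome and are silenced by DNA methylation of their promoters in somatic cells. MAGE genes are divided into type I (MAGEA, MAGEB and MAGEC), which show the germline and tumour pattern, and type II (such as MAGED, MAGEE, MAGEF1, MAGEH1 and MAGEL2), which are active in many tissues. MAGE proteins share a homology domain through which they bind RING ubiquitin ligases. PAGE, GAGE and XAGE are small related proteins, SSX proteins are repressors known from the fusions of synovial sarcoma, CTAG1B and CTAG2 encode NY-ESO-1 and LAGE-1, and SPANX proteins belong to the sperm nucleus. Peptides of several of them are presented on HLA class I and serve as targets of T cells.

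ELK3 was at 8.09 and 7.92 (RMA log2 signal) in knockdown arrays 1 and 5 and at 10.05 and 10.07 in control arrays 1 and 2, a log2 change of -2.06 (SE 0.09, limma adjusted p = 2.57e-06). The groups stood far apart over the whole array: r over all probe sets was 0.996 and 0.998 within the groups and 0.902 to 0.904 between them, probe sets not being independent replicates. At an adjusted p under 0.05, 21.3% of all genes were lower and 29.5% higher in the knockdown arrays. All 9 measured mesenchymal markers (such as VIM, AXL and COL1A2) were lower, while the keratin genes KRT8, KRT18 and KRT19 were the 3 of 8 epithelial markers that were higher. CDH1 and EPCAM, which define epithelial cells, stayed in both groups below the 95th percentile of 333 olfactory receptor genes, used here as a gauge of the dim end of the array because RMA values carry no detection call. None of 10 germ cell markers exceeded that gauge in either group, and their medians were 4.40 in knockdown and 4.56 in control; among them SYCP3 rose by 0.33 and 0 fell. Of 5 leukocyte markers, 0 passed the threshold, and NKG7 alone was above the gauge, in both groups. The part of these broad shifts in the results below was not tested.

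More of the 43 genes were lower than higher in the knockdown arrays, and the largest falls, by the brightest probe set of each gene, were those of PAGE5, MAGEA1, CTAG2 and SSX1. The 43 include 7 type II MAGE genes, active in many tissues, of which 2 fell and 1 rose, and CTAGE1, which did not pass. Of the 43 genes, 14 fell (32.6%, against 21.3% of all genes) and 1 rose (2.33%, against 29.5% of all genes). Falls of more than 2-fold passed for 8 (18.6%, against 7.51% of all genes) and falls of more than 8-fold for 4 (9.3%, against 1.63%). No member rose by more than 2-fold (10.2% of all genes did) or 8-fold (1.42%). Counting both directions, 15 of 43 passed, against 50.8% of all genes, and 9 met the rule that the submitters describe (fold over 1.5 with an unadjusted p under 0.05), against 31.7%. The median log2 change was -0.16, beside -0.01 over all genes, and 36 of the 43 changes were below 0. The arrays of the groups did not overlap for 26 of 43 genes (60.5%), a smaller share than the 75.3% of all genes. The other 28 genes did not pass; with the exception of MAGEA12 their changes lay between -0.37 and 0.13. With no moderation of the variances, which leaves 2 degrees of freedom, MAGEH1, XAGE5, MAGEB6, MAGEB10, MAGEC2, MAGED1 and MAGEE1 lost their calls and MAGEC3 (-0.18) gained one.

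**Figure D1:**
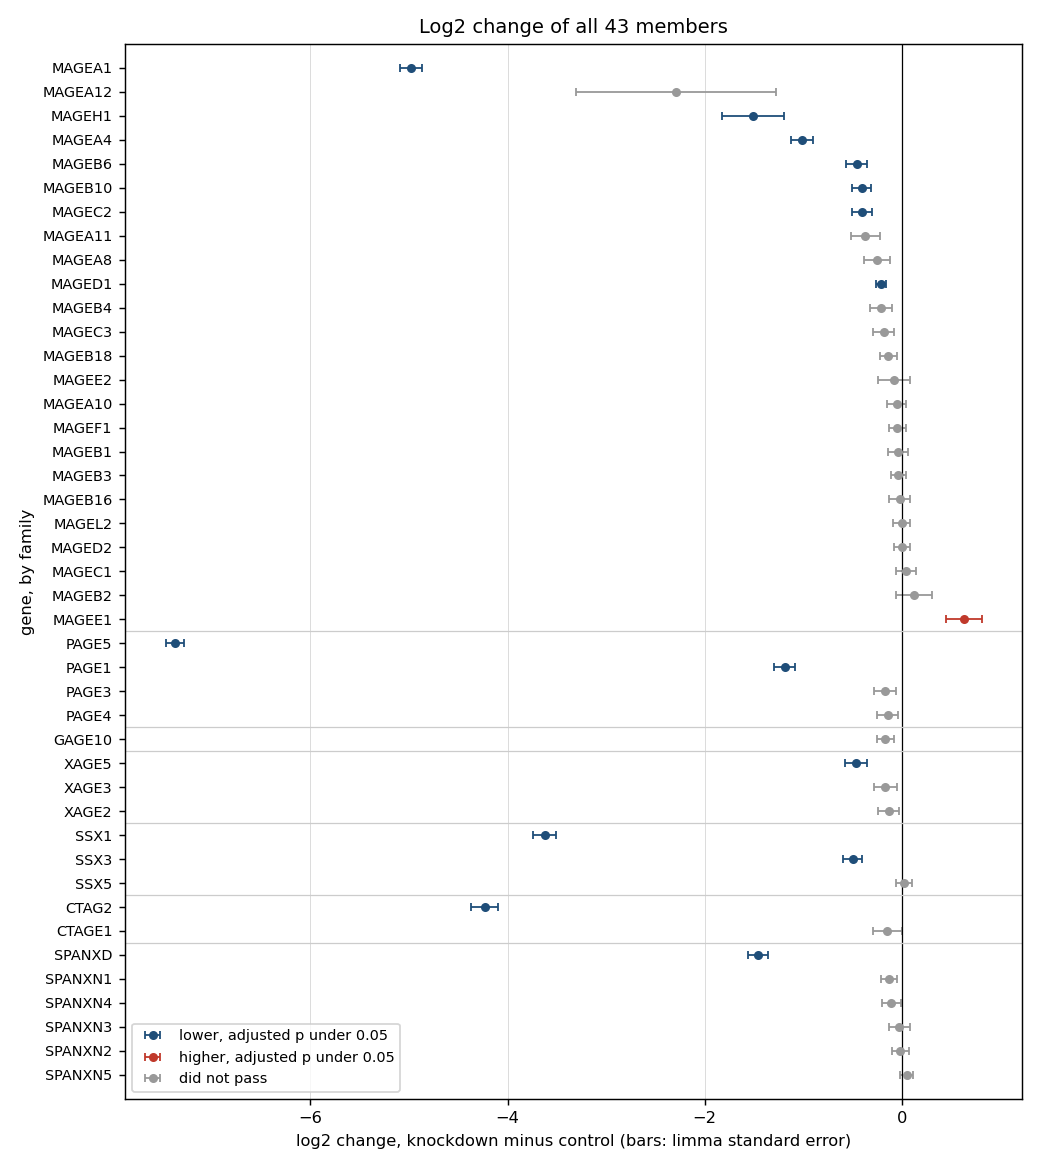
Log2 change of the 43 genes, knockdown minus control, grouped by family in the order MAGE, PAGE, GAGE, XAGE, SSX, CTAG and SPANX; points are differences of group means (2 arrays each), bars are limma standard errors, and colour marks an adjusted p under 0.05. PAGE5 (-7.37), MAGEA1 (-4.98), CTAG2 (-4.23) and SSX1 (-3.63) lie far to the left, MAGEA12 has the widest error bar (SE 1.01), and MAGEE1 (0.63) is the only gene called higher.

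Many of the genes that did not pass had low signals in both groups. In the control arrays 15 of the 43 had a mean above the olfactory receptor gauge (6.26). Of these, 7 fell (46.7%, against 21.3% of all genes), 1 rose (6.67%, against 29.5%) and 7 did not pass. In the knockdown arrays 8 of the 43 were above it (6.21): CTAG2, GAGE10, MAGED1, MAGED2, MAGEE1, MAGEF1, MAGEH1 and XAGE2. With the 99th percentile of the receptor genes as the gauge the numbers were 9 in control and 5 in knockdown. Of the 28 genes below the gauge in control, 7 fell (25.0%, against 21.3% of all genes), 2 of them by more than 2-fold (7.14%, against 7.51%), and 0 rose. Folds measured down into that range depend on the lowest signals that the array gives. The control mean that splits the members is also part of each change, so members bright in control had more room to fall. The shares of all genes cover bright and dim genes alike and are not matched to either side of the split.

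By the brightest probe set of each gene, the largest fall was that of PAGE5, a rank that it lost when probe sets were averaged or those named _s_at, _x_at and _a_at left out. It was at 4.29 and 4.31 in knockdown arrays 1 and 5 and at 11.68 and 11.66 in control arrays 1 and 2. The mean went from 11.67 ± 0.013 (SD, n = 2) to 4.30 ± 0.013 (SD, n = 2), 166-fold lower (a log2 change of -7.37 with an SE of 0.09 and an adjusted p of 9.70e-08 in limma). This probe set was bright in both control arrays and below the olfactory receptor gauge in both knockdown arrays, with no overlap. The 5 probe sets of PAGE5 disagree: 3 changed by -7.55 to -6.77, while 2 others stood at -0.33 and -0.22 and did not pass; the first of these read 7.01 and 7.26 in knockdown and 7.38 and 7.55 in control, and the signals of the second overlapped between the groups. With probe sets named _s_at, _x_at or _a_at left out, 1 of the flat probe sets is all that remains, and the change is -0.22 (adjusted p = 0.301). With only those named _s_at or _x_at left out, an alternative chosen after seeing the data, it stays at -7.37 (adjusted p = 3.32e-08 in limma). With the mean of the 5 it is -4.45, a smaller fall than those of MAGEA1 and CTAG2 (-4.98 and -4.62 with their probe sets averaged). Among its relatives, PAGE1 was at 4.04 and 4.02 in knockdown and at 5.34 and 5.09 in control (log2 change -1.19, SE 0.11, adjusted p = 9.17e-05). All 4 of these signals were below the gauge, and the groups did not overlap. PAGE3 and PAGE4 were below the gauge in both groups and did not pass, at -0.17 and -0.14.

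MAGEA1, known for its early discovery as a tumour antigen recognised by T cells, was at 3.96 and 4.10 in the knockdown arrays and at 8.99 and 9.04 in the control arrays. The difference was 31.6-fold (log2 change -4.98, SE 0.11, adjusted p = 2.26e-07), and the knockdown signals were below the gauge. MAGEA1 has only 1 probe set, named _s_at, so its fall could not be checked with such probe sets left out. CTAG2 (LAGE-1) was at 6.92 and 6.65 in knockdown and at 11.18 and 10.86 in control, 18.8-fold lower (log2 change -4.23, SE 0.14, adjusted p = 8.31e-07). Unlike MAGEA1 its knockdown signals stayed above the gauge, although the third CTAG2 probe set fell further, by 5.51, to 4.39 and 4.29. All 3 CTAG2 probe sets are named _s_at or _x_at, so this fall could not be checked without them either. CTAGE1, which lies on chromosome 18, is named for an antigen of cutaneous lymphoma and shares only the beginning of its symbol with CTAG2; its signals overlapped between the groups (5.07 and 5.41 against 5.26 and 5.50).

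SSX1 was at 4.06 and 3.85 in the knockdown arrays and at 7.53 and 7.62 in the control arrays, 12.3-fold lower (log2 change -3.63, SE 0.12, adjusted p = 8.47e-07). Its only probe set is named _s_at. SSX3 was at 4.90 and 4.81 in knockdown against 5.32 and 5.38 in control, a difference of -0.50 that passed (adjusted p = 0.00429). Its second probe set fell by 1.63, and the mean of both by 1.06. Both control signals of SSX3 were below the gauge, and SSX5 was dim in all 4 arrays and did not pass (0.02). SPANXD was at 5.25 and 5.25 in knockdown and at 6.70 and 6.71 in control (log2 change -1.46, SE 0.10, adjusted p = 2.61e-05). Its only probe set is named _x_at, so neither SSX1 nor SPANXD could be checked with such probe sets left out. The 5 SPANXN genes were below the gauge throughout and did not pass, with changes between -0.13 and 0.05.

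**Figure D2:**
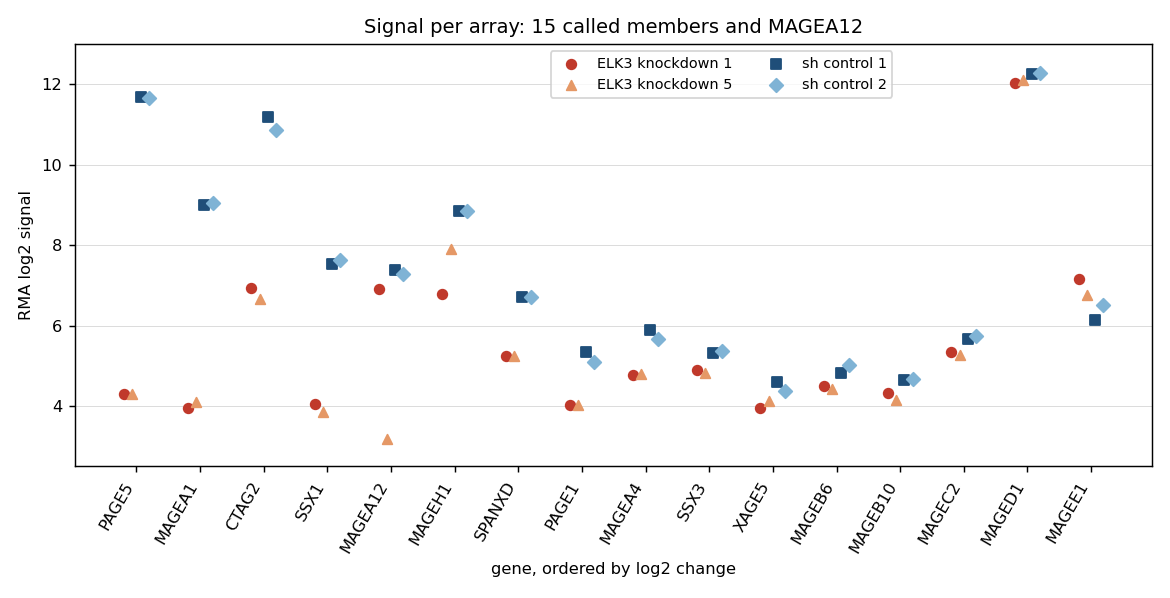
RMA log2 signal of each of the 4 arrays for the 15 genes with an adjusted p under 0.05 and for MAGEA12, ordered by log2 change; red and orange mark knockdown arrays 1 and 5, dark and light blue control arrays 1 and 2. The arrays of a group lie close together for PAGE5 (4.29 and 4.31 against 11.68 and 11.66) but not for MAGEA12, where knockdown array 1 is at 6.90 and knockdown array 5 at 3.17.

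Among the 17 type I MAGE genes, 5 fell (29.4%, against 21.3% of all genes), 0 rose (against 29.5%) and 12 did not pass (median change -0.21). Besides MAGEA1, MAGEA4 was at 4.76 and 4.78 in knockdown against 5.90 and 5.67 in control (log2 change -1.01, adjusted p = 2.51e-04). The change of MAGEA4 depends on the probe set: its 3 probe sets changed by -1.01, 0.09 and -0.40, and the mean of them by -0.44. In the fit over all probe sets the change of 0.09 did not pass, while those of -1.01 and -0.40 did. MAGEA4 is a target of engineered T cell receptors. MAGEB6, at 4.49 and 4.41 in knockdown against 4.81 and 5.01 in control (-0.46), passed, as did MAGEB10 (-0.41) and MAGEC2 (-0.40), with differences of 1.32-fold to 1.37-fold at signals below the gauge in both groups. MAGEB10 lost its call without knockdown replicate 5 (-0.32), and MAGEC2 without knockdown replicate 5 (-0.37) or control replicate 2 (-0.37). MAGEA8, MAGEA10, MAGEA11, MAGEC1 and the other MAGEB genes did not pass. MAGEC3, whose probe sets changed by -0.21 to 0.12, had a mean of 6.21 in knockdown against 6.39 in control, and MAGEB4 was at 6.19 and 6.13 against 6.43 and 6.30.

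Of the 7 type II MAGE genes, which are active in many tissues, 2 fell (28.6%, against 21.3% of all genes), 1 rose (14.3%, against 29.5%) and 4 did not pass (median change -0.04). MAGED1, an adaptor of the p75 neurotrophin receptor, was at 12.03 and 12.09 in knockdown against 12.26 and 12.29 in control, a difference of 1.16-fold that passed (log2 change -0.21, adjusted p = 0.0112) and lost its call without control replicate 1 (adjusted p = 0.0686) or control replicate 2 (adjusted p = 0.115). MAGED2, linked to salt handling in the fetal kidney, overlapped between the groups (9.99 and 10.15 against 10.09 and 10.05), and its 7 probe sets changed by -0.13 to 0.04. MAGEF1, on chromosome 3, overlapped too (10.71 and 10.91 against 10.82 and 10.90). MAGEE1, a protein of the dystrophin complex, was the gene that rose, from 6.14 and 6.51 in control to 7.16 and 6.75 in knockdown (log2 change 0.63, SE 0.18, adjusted p = 0.023). Without control replicate 1 it was at 0.45 and did not pass (adjusted p = 0.0998). MAGEB2 passed as a second gene that rose without knockdown replicate 5 (0.42), although its signals overlapped (4.77 and 4.19 in knockdown, 4.28 and 4.42 in control). MAGEL2, a gene of the Prader-Willi region on chromosome 15, and MAGEE2 were dim in all arrays and did not pass (0.0009 and -0.08).

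The knockdown arrays differed from each other by more than 1 log2 unit for MAGEA12 and MAGEH1, 2 of the 43 genes (over all genes, 0.298% differed that much). The control arrays differed by as much for 0 of the 43 (0.0165% of all genes). MAGEH1 was at 6.79 in knockdown array 1 and at 7.90 in knockdown array 5, both below the controls at 8.86 and 8.85 (log2 change -1.51, SE 0.31, adjusted p = 0.00547). MAGEA12 was at 6.90 in knockdown array 1, just below the controls at 7.38 and 7.29, but at 3.17 in knockdown array 5. The mean change of -2.29 therefore had an SE of 1.01 and did not pass (adjusted p = 0.104). Taken alone against the control mean, knockdown array 1 stood at -0.43 (without knockdown replicate 5, adjusted p = 0.00978) and knockdown array 5 at -4.16 (a call without knockdown replicate 1). No other of the 18132 genes differed as much between the knockdown arrays as MAGEA12 (3.73), and CSAG1 came next (3.59). CSAG1 lies beside MAGEA12 in the order of measured genes on the X chromosome and belongs to a family of cancer-testis genes interspersed with the MAGEA genes.

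CSAG1 was at 8.56 in knockdown array 1, at 4.98 in knockdown array 5 and at 9.84 and 9.85 in the controls (log2 change -3.08, SE 0.97, adjusted p = 0.0342). This call was lost with robust moderation (adjusted p = 0.206), with no intensity trend (0.056) and with no moderation (0.332). Of the 5 measured genes on each side of MAGEA12, the 9 others differed between the knockdown arrays by -0.67 to 0.19 (array 1 minus array 5). Next to CSAG1, GABRQ differed by -0.18, and next to MAGEA12, CETN2 differed by -0.13.

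Some probe sets shared by other genes of the MAGEA cluster split the same arrays: 4 of the 36 shared probe sets differed by more than 1 log2 unit between the knockdown arrays, against 0.229% of all probe sets. Of 3 probe sets annotated to MAGEA2 and its copy MAGEA2B, the first was at 10.13 in knockdown array 1, at 5.17 in knockdown array 5 and at 6.85 and 6.74 in the controls. Knockdown array 1 was thus 3.34 above the control mean and knockdown array 5 was 1.63 below it (-1.63), a 31.2-fold difference between arrays of the same label. The other 2 probe sets went the same way, at 9.31 and 4.36 against 5.85 and 5.76, and at 9.45 and 5.23 against 6.88 and 6.95. None of the 3 passed (adjusted p between 0.574 and 0.794), and the knockdown arrays lay on both sides of the controls. The probe set annotated to MAGEA3 and MAGEA6 was at 7.69 and 4.92 in knockdown arrays 1 and 5 and at 12.32 and 12.41 in the controls. It fell in both, more so in array 5 (log2 change -6.06, SE 0.75, adjusted p = 4.06e-04 over all probe sets). Of the 4 probe sets annotated to CSAG2 and CSAG3, 3 were above the controls in knockdown array 1 and below them in knockdown array 5, for example at 7.72 and 5.29 against 6.52 and 6.49. The fourth was below the controls in both, at 4.34 and 3.67, and passed (-0.67, adjusted p = 0.0277). Whether the arrays 1 and 5 differ in construct, clone or culture is not given in the labels.

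**Figure D3:**
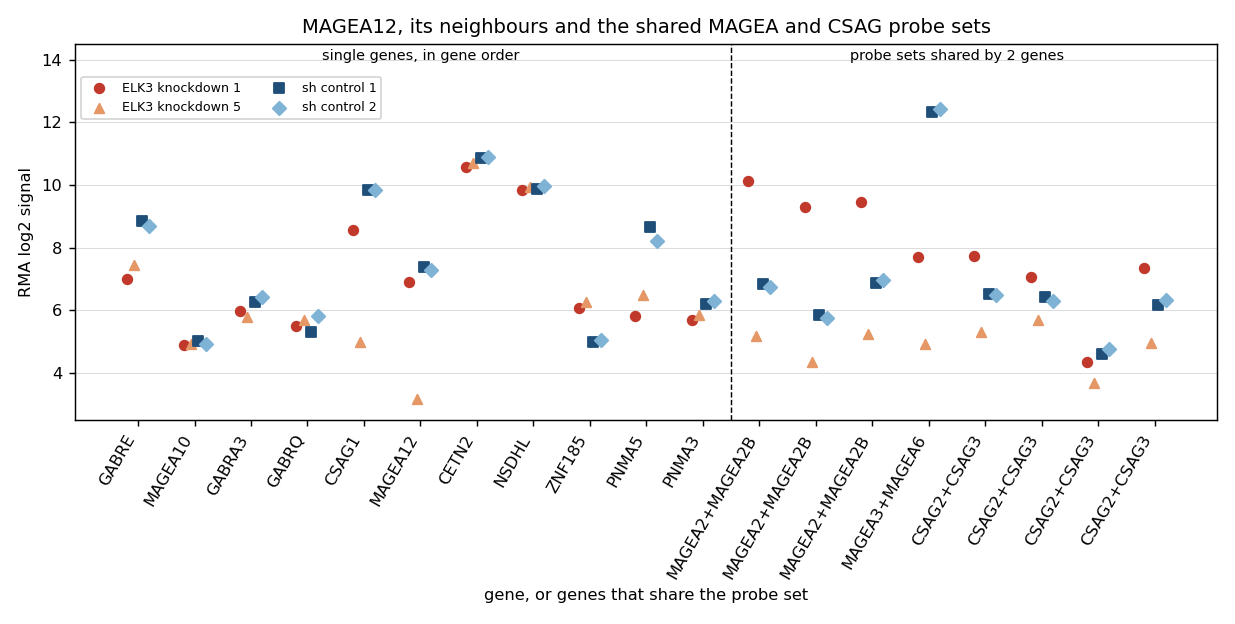
RMA log2 signal of the 4 arrays for MAGEA12 and the 5 measured genes on each side of it on the X chromosome (left of the dashed line, in gene order), and for the probe sets shared by MAGEA2 and MAGEA2B, by MAGEA3 and MAGEA6 and by CSAG2 and CSAG3 (right). Knockdown array 1 (red) and knockdown array 5 (orange) separate at CSAG1 (8.56 and 4.98), MAGEA12 (6.90 and 3.17) and the shared probe sets, and lie together at CETN2 and NSDHL.

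For families made of near-identical copies the shared probe sets give the only signal of most members. Of all 36 (3 of them annotated to SPANXB1 under more than 1 gene ID), tested in a fit over all 49293 probe sets, 19 were lower and 1 was higher in the knockdown arrays (22.1% and 27.0% of all probe sets were lower and higher), and 11 fell by more than 8-fold (1.52% of all probe sets did). Several of the 36 are annotated to the same or overlapping genes, such as the 3 of PAGE2 and PAGE2B. They are therefore not separate observations. The probe set annotated to 3 GAGE genes including GAGE1 was at 3.64 and 3.80 in knockdown against 9.72 and 9.86 in control, 67.1-fold lower (adjusted p = 1.30e-07). The probe sets annotated to 8 and to 10 GAGE genes changed by -5.91 and -4.94, while the 3 annotated to GAGE1 and GAGE12F were dim in all arrays and did not pass. GAGE10, the only GAGE gene with a probe set of its own, was at 8.76 and 8.87 in knockdown and at 8.96 and 9.01 in control and did not pass (-0.17), although it did without knockdown replicate 5 (-0.22). Its signal stayed high in all 4 arrays.

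The probe set annotated to XAGE1A and XAGE1B was at 4.22 and 3.86 in knockdown against 9.42 and 9.61 in control (log2 change -5.48, adjusted p = 4.04e-07). The single-gene XAGE probe sets had small changes: XAGE5 was at 3.95 and 4.12 in knockdown against a mean of 4.49 in control, with no overlap (-0.46, adjusted p = 0.0104). XAGE3 did not pass (-0.16), although 1 of its 3 probe sets fell by 0.52 and is the one that remains with probe sets named _s_at or _x_at left out. XAGE2 did not pass at 7.08 and 7.10 against 7.18 and 7.26; its dimmer probe set fell by 0.74, and the mean of both, at -0.44, passed. All 3 probe sets annotated to PAGE2 and PAGE2B fell, the first from 10.99 and 11.09 to 3.64 and 3.52 (log2 change -7.46, adjusted p = 4.94e-08). Of 2 CT45 probe sets, the one annotated to 9 genes fell by 2.75 and the other, annotated to CT45A5 and CT45A10, from 8.72 and 8.84 to 4.49 and 4.11 (log2 change -4.48, adjusted p = 8.65e-07). These signals were high in both control arrays and low in both knockdown arrays.

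The probe set annotated to SSX2 and SSX2B was at 4.18 and 4.31 in knockdown against 10.57 and 10.63 in control, 81.9-fold lower (adjusted p = 7.42e-08), and the probe sets annotated to SSX4 and SSX4B were 13.6-fold and 2.72-fold lower. Of 2 probe sets annotated to SSX2B and SSX7, the brighter changed by -0.31 (adjusted p = 0.0173) and the other did not pass (-0.26). The probe set annotated to CTAG1A and CTAG1B, the copies that encode NY-ESO-1, changed by -0.32 (adjusted p = 0.0373), from 7.53 and 7.47 to 7.13 and 7.22. The 4 probe sets shared by CTAGE genes and the 1 of MAGEA9 and MAGEA9B did not pass. Of 7 SPANX probe sets, 4 fell, with changes of -2.16 to -0.31, and the 3 of SPANXB1 did not pass. The 1 shared probe set that rose is annotated to MAGED4 and MAGED4B, which are type II genes: it went from 4.73 and 4.47 to 6.92 and 7.02 (log2 change 2.37, adjusted p = 7.90e-06), but the second probe set of the same annotation was level in all 4 arrays (6.93 and 7.05 against 7.10 and 7.16). The number that rose became 5 without knockdown replicate 5, which leaves a lone knockdown array assumed to vary like the controls.

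**Figure D4:**
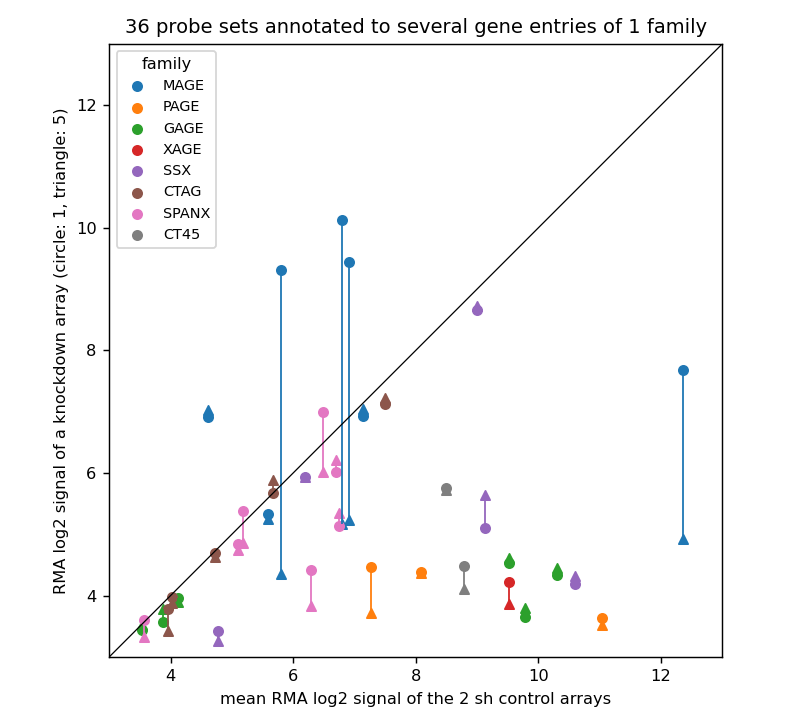
Signal of each knockdown array (circle: 1, triangle: 5) against the mean of the control arrays for the 36 probe sets annotated to several gene entries of a family, all on the RMA log2 scale; a line joins the knockdown arrays of a probe set and the diagonal marks equal signal. Some probe sets of GAGE, XAGE, SSX, PAGE and CT45 lie far below the diagonal, and the 3 long blue lines across it are the probe sets of MAGEA2 and MAGEA2B (10.13 and 5.17 for the first).

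**Figure D5:**
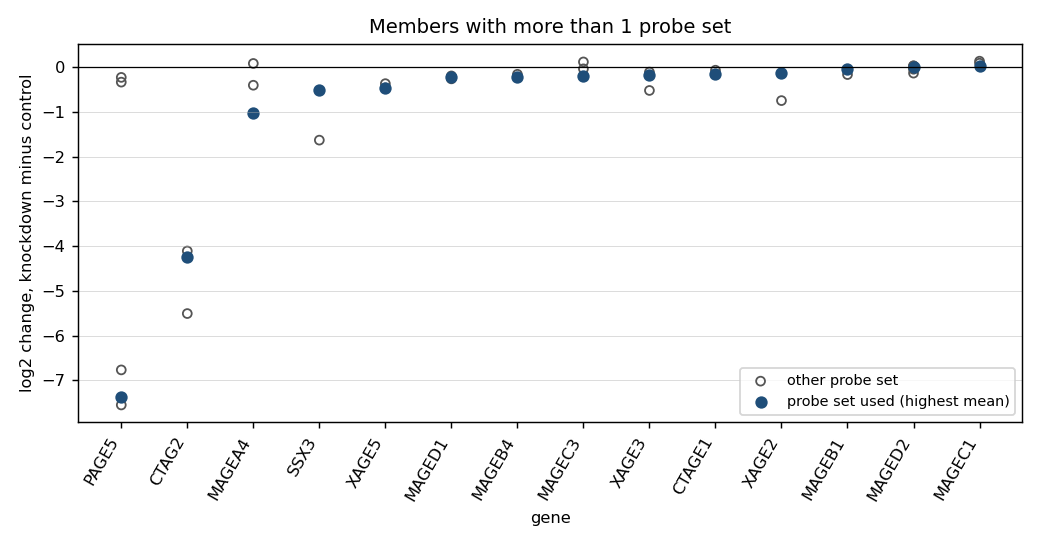
Log2 change (knockdown minus control, difference of means of 2 arrays) of every probe set of the 14 genes with more than 1; the filled point is the probe set used. The 5 PAGE5 probe sets split into 3 between -7.55 and -6.77 and 2 at -0.33 and -0.22, and MAGEA4 has probe sets on both sides of 0.

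Of the 43 genes, 40 lie on the X chromosome (assembly GRCh38.p14), and all 15 that passed are among them. The other 634 measured genes of that chromosome were more often higher than lower, with 233 higher (36.8%) and 102 lower (16.1%), against 1 (2.5%) and 14 (35.0%) of the 40. Their median change was 0.07, against -0.17 for the 40. Falls of more than 8-fold were measured for 7 of the 634 (1.1%) and for 4 of the 40. Neighbours did not share one direction: PAGE5 and MAGEH1 stand 2 places apart in the order of measured genes, with the level PAGE3 between them, while VCF2 on the other side of PAGE5 was higher by 0.71 and USP51, next to MAGEH1, stood at 0.22 and did not pass.

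ETS proteins, the family of ELK3, bind DNA at a GGAA core, and the MAGEA1 promoter is a textbook case in which methylation of CpG within ETS motifs blocks transcription. RefSeq promoters (250 bases before to 50 after the start, build GRCh38.p14) were found for 37 of the 43 genes; MAGEA1, MAGEA10, MAGEH1, CTAG2, SSX3 and SPANXN4 had none in the table. The motif CCGGAA was searched on both strands, with GGAAGT and the bare core GGAA, which overlap it, beside it. CCGGAA was present in 3 of the 37 (8.11%), namely MAGEF1, MAGED1 and MAGEB6, against 17.2% of all 35116 promoters. GGAAGT was present in 15 (40.5%, against 22.8%) and GGAA in all 37 (95.5% of all promoters). Each member counts by 1 promoter, whereas the 35116 are all promoter entries, not limited to 1 per gene. Of the 5 promoters of genes that fell by more than 2-fold, 0 held CCGGAA and 2 held GGAAGT (40.0%). Of the 26 promoters of members that did not pass, 1 held CCGGAA and 10 held GGAAGT (38.5%). The median number of CpG was 10 in the members' promoters and 14 over all promoters. A match of letters is a description and not a site. The 4 promoters printed first belong to genes that were lower in one or both knockdown arrays (PAGE5, SSX1, SPANXD and MAGEA12). Of these, MAGEA12 did not pass. The last 2 belong to type II genes that were bright in all 4 arrays (MAGED1 and MAGEF1). MAGED1 passed as lower too (-0.21), so the last 2 are not a set of unchanged genes. Capitals mark CCGGAA or GGAAGT on either strand, and each sequence runs 5′ to 3′ on the gene's strand. They lie at chrX:55220096-55220395 (+ strand), chrX:48255142-48255441 (+ strand), chrX:141698690-141698989 (- strand), chrX:152733507-152733806 (+ strand), chrX:51802826-51803125 (+ strand) and chr3:184712015-184712314 (- strand).
PAGE5: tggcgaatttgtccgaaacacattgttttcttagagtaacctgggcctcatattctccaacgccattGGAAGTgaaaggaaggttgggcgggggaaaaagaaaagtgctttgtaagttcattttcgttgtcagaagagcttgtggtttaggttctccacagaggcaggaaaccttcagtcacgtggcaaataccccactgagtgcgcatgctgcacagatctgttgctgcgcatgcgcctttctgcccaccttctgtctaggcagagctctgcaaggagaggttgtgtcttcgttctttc
SSX1: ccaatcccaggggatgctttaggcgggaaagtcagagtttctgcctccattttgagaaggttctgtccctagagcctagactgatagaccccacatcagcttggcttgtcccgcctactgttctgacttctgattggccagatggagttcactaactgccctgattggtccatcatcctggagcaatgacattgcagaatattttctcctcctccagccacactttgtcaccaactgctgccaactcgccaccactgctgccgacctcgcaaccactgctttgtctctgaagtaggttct
SPANXD: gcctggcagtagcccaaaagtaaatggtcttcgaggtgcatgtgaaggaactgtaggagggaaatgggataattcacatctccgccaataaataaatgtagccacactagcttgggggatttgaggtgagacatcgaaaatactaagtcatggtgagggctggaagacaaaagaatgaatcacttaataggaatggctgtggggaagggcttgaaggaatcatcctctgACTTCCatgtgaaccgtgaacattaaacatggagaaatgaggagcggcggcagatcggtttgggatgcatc
MAGEA12: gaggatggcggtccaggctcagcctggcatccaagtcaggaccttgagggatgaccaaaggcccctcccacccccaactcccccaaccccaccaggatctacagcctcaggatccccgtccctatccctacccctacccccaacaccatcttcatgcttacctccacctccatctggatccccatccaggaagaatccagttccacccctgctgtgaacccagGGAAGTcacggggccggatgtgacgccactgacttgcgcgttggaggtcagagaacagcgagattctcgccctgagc
MAGED1: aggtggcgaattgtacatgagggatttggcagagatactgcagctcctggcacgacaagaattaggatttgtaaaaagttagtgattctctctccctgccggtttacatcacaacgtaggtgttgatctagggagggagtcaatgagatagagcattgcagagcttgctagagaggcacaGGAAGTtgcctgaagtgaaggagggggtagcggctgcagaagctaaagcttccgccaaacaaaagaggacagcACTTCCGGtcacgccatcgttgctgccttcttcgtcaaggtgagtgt
MAGEF1: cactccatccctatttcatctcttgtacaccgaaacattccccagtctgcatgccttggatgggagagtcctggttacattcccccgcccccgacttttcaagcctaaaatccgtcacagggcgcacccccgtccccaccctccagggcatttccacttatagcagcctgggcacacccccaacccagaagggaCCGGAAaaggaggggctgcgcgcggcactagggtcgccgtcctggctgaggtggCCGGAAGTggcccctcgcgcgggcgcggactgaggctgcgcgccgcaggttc
The promoters of PAGE5, SPANXD and MAGEA12 each hold 1 GGAAGT and that of SSX1 holds none. GGAAGT is also present in those of MAGED1 (2) and MAGEF1 (1). MAGEF1 holds CCGGAA at positions -56 and -2 (first base of the match, with the start as 0). MAGED1 holds CCGGAA once, inside the transcript.

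Among 56 cancer-testis genes outside these families, 12 were higher, 12 lower and 32 not past the threshold (median change -0.03), beside 29.5% higher and 21.3% lower of all genes. The largest fall was that of VCX, an X-linked gene of the testis, from a mean of 8.91 in control to 5.15 in knockdown (log2 change -3.76, adjusted p = 1.48e-06). The largest rises were those of TEX15, a meiotic gene (from 4.86 and 4.86 to 7.93 and 7.62), LDHC, the lactate dehydrogenase of sperm (2.33), and ZNF165 (2.18). Averaged over its probe sets, TEX15 changed by 1.80. Of these 56, DDX4, DAZL, PRM1, PRM2, TEX101 and SYCP3 are also among the germ cell markers above. CTCFL is also counted below with the genes of DNA methylation and heterochromatin. Genes with a MAGE homology domain but another name also went both ways: NDN, which encodes necdin, fell from 7.65 and 7.72 to 4.12 and 4.48 (log2 change -3.39, adjusted p = 2.24e-06), TRO, which encodes trophinin, rose from 7.96 and 7.88 to 9.76 and 9.61 (1.77), and NSMCE3 rose by 0.39, a call lost without control replicate 1 (0.30).

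Of 29 genes of DNA methylation and heterochromatin, 18 rose, 4 fell and 7 did not pass (29.5% of all genes rose and 21.3% fell). Many of them are known to keep cancer-testis genes silent, but the list also holds TET1, TET2 and TET3, which act against methylation, and CTCFL, known as an activator of cancer-testis genes. TET1, which oxidises methylated cytosine and thus opposes methylation, rose from 6.80 and 6.11 to 8.65 and 8.71 (log2 change 2.22, adjusted p = 1.07e-04), a call lost with no moderation (adjusted p = 0.0681). The de novo methyltransferase gene DNMT3B rose by 2.13, and the H3K9 methyltransferase genes EHMT1 and SETDB1 by 1.72 and 1.45. The 4 that fell, named after their values were seen, were DNMT1, the maintenance methyltransferase (-0.62), its partner UHRF1 (-0.40), and the methyl-CpG binding genes MBD1 (-0.44) and MBD2 (-0.47). The rise of DNMT3B was 0.07 and did not pass with probe sets named _s_at, _x_at or _a_at left out. It was 2.13 with only those named _s_at or _x_at left out and 1.43 with all its probe sets averaged, and passed in both. Whether these changes bear on the cancer-testis genes was not tested.

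Of 13 genes for ubiquitin ligase partners and targets of MAGE proteins, 7 rose, 1 fell and 5 did not pass (29.5% of all genes rose and 21.3% fell). TRIM28 is counted among the rises both here and in the list of DNA methylation and heterochromatin. RNF8, a ligase of the DNA damage response, rose by 1.19, PJA1, the ligase bound by MAGED1, by 1.09 and USP7, a deubiquitinase bound by MAGEL2, by 0.98. PRKAA1, a catalytic subunit of AMPK that MAGEA3 and MAGEA6 mark for degradation, fell by 1.16 from 8.90 and 8.92 to 7.65 and 7.84 (adjusted p = 6.94e-05). RNF8 stood at 0.45 with probe sets named _s_at or _x_at left out, and PRKAA1 at -0.27, no longer passing, with those named _a_at left out as well. The number that fell was 2 without control replicate 1.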

How the data were processed

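The series was measured on Affymetrix PrimeView arrays with biotin-labelled RNA. The deposited values are log2 signals that the authors normalized with RMA, per the submitters' processing notes; the sources used here give no version or settings. Array medians were 6.76 to 6.80, arrays carry no read depth, and the number of arrays limits the precision.

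Of 49293 probe sets, the platform annotation gives 44988 a single symbol and 1832 several, and 2473 are unnamed here. Each of the 18132 genes was represented by its probe set with the highest mean over the 4 arrays. Knockdown was compared with control in limma 3.58.1 under R 4.3.3 (group as the only factor, intensity trend, two-sided, Benjamini-Hochberg adjustment over all genes, threshold 0.05, 2 residual and 4.83 prior degrees of freedom). An exact permutation test of 2 arrays against 2 cannot give a p below 0.333. The script was tested on simulated data.

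Symbols of antisense transcripts and pseudogenes were left out. Named are the members that passed, the 12 with the largest changes in full, the 6 with the highest mean that did not pass, any that did not pass but differed by over 1 log2 unit, those whose probe sets disagree in direction, and up to 4 genes of each further list (all, for CSAG genes and MAGE homology domain genes); neighbours and shared probe sets were chosen after their values were seen. Members and lists were chosen with earlier results of these data known.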

Additional observations from a re-analysis of the deposited data

How the results depend on the processing

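No paired analysis was possible because the groups share only replicate number 1. Leaving out an array leaves a lone array in its group, assumed to vary like the others. Over the 43 genes and the alternatives that were refits, 469 changes stayed on their side of the threshold, 15 lost and 13 gained a call. The refits changed the normalization, the moderation, the genes, the probe sets or the arrays, and a gene counts only where it was measured. The adjusted p under 0.01, the fold over 2 and the submitters' rule were not applied gene by gene and are not in these numbers. Of the 469, 26 (in 14 genes) had the other sign, none of them a call, and 0 called changes reversed. On leaving out an array, MAGEA11 (-0.44 and -0.58), MAGEA8 (-0.42), PAGE3 (-0.31), MAGEE2 (-0.35), MAGEB2 (0.42), GAGE10 (-0.22) and MAGEA12 gained a call. The 14 genes lower became 11 at an adjusted p under 0.01, 8 with a fold over 2 or by the submitters' rule, 9 with no moderation, 5 of 12 with dim genes left out, 9 of 31 with probe sets named _s_at or _x_at left out (an alternative chosen after seeing the data) and 4 of 24 with those named _a_at left out too; leaving out an array gave 14 to 16. The 1 gene higher became 0 at 0.01, with a fold over 2 and with no moderation, and 0 to 2 on leaving out an array, for all members and for MAGE alike.

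Of all genes, 3469 were higher and 2284 lower by the submitters' rule, 1843 and 1361 with a fold over 2, 2926 and 2165 with no moderation, and 1718 and 1339 with probe sets named _s_at, _x_at or _a_at left out. By family, the 7 MAGE genes lower became 3 under the submitters' rule, a fold over 2, dim genes left out and no moderation, and 2 with _s_at, _x_at and _a_at left out. The 2 PAGE genes lower became 1 with dim genes or those 3 kinds of probe set left out, and the 2 SSX genes lower became 1 under either fold rule. The 1 XAGE gene lower became 0 at 0.01, under either fold rule, with dim genes left out and with no moderation, and 2 when probe sets were averaged or with _s_at and _x_at left out. The 1 CTAG and the 1 SPANX gene lower became 0 with _s_at and _x_at left out, with or without _a_at. CTAG2 and SPANXD have no other probe sets and were then not measured, and neither was any SSX gene. The 0 GAGE genes lower became 0 to 1 on leaving out an array.

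CSAG1 lost its call at 0.01, without the intensity trend, with no moderation and with robust moderation (0 lower in each). Of the MAGE homology domain genes, the 2 higher became 1 under either fold rule, with no moderation and with _s_at and _x_at left out, and 1 to 2 on leaving out an array. The 1 lower, NDN, became 0 with dim genes or _s_at and _x_at left out. With _s_at and _x_at left out, NDN and NSMCE3 were not measured. Of the other cancer-testis genes, the 12 higher became 4 with a fold over 2, 7 with no moderation and 4 with _s_at, _x_at and _a_at left out, and the 12 lower became 3, 6 and 1, and 4 with dim genes left out. Of the methylation and heterochromatin genes, the 18 higher became 11 by the submitters' rule, 6 with a fold over 2, 11 with no moderation and 3 with _s_at, _x_at and _a_at left out; the 4 lower became 1, 0, 1 and 1. Of the ligase partners and targets, the 7 higher became 2 with a fold over 2 and with _s_at, _x_at and _a_at left out; the 1 lower became 3 with the mean of all probe sets, 0 with those probe sets left out and 1 to 2 on leaving out an array. The 8 members above the olfactory receptor gauge in knockdown became 5 at the 99th percentile and 4 at the median of all genes, and the 15 in control became 9 at the 99th percentile. Stricter thresholds and left-out probe sets lower counts by construction; the cause of the other changes was not tested.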
